A study of Mus musculus with 22 samples.

Results

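The autophagy genes described here were the 39 rows, of 24411 genes in each of 2 deposited tables, whose symbol is Atg followed by a digit or is among 21 listed names (the ULK kinases and their scaffold, the class III PI3-kinase subunits, the ATG8 family, the WIPI proteins and the cargo receptors). All 39 were found in both tables, and none of their measured values was used to choose them. The RNA came from neural stem cells taken from the hippocampus of adult mice and grown as adherent cultures in medium with EGF and bFGF. The series, by its title, concerns loss of O-GlcNAcylation in these cells, in which O-GlcNAc transferase (OGT) puts N-acetylglucosamine on proteins of the nucleus and cytosol. In the knockdown arm, 5 ShOgt libraries came from cells given lentivirus that encodes a short hairpin RNA against Ogt, and 6 ShLuc libraries from cells given a hairpin labelled Luc, both at 10 viral particles per cell for 3 days, so that the controls were infected too. In the inhibitor arm, cells behind 5 libraries were exposed for 24 h to 12.5 µM OSMI-1, a compound that inhibits OGT, and cells behind 6 Vehicle libraries received DMSO in the same volume. Mouse strain and age, the hairpin sequences and whether libraries of a group came from separate cultures or animals are not given in the sources used here, so p-values measure the spread between these libraries, which may be technical. Each arm has its own table and was compared within itself.

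Macroautophagy encloses cytoplasm in a membrane sac, the autophagosome, and delivers it to lysosomes for breakdown. A kinase complex around ULK1 or ULK2 starts the process, a class III PI3-kinase complex marks the forming membrane with PI3P, and an ubiquitin-like conjugation system attaches ATG8 proteins (the LC3 and GABARAP families) to lipid in that membrane, where cargo receptors such as p62 dock. Quiescent neural stem cells are known to depend on lysosomal breakdown of proteins, and mRNA levels of this machinery do not measure autophagic flux.

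Levels below are deposited normalized read counts, in which 1 read was worth 0.43 to 1.41 depending on the library. Averages carry ± SD (n = 5 for ShOgt and OSMI-1, n = 6 for ShLuc and Vehicle). Values in parentheses after them are log2 fold changes ± SE on the log2(count + 1) scale, ShOgt over ShLuc or OSMI-1 over Vehicle, with limma's adjusted p over all tested genes, and a gene is said to have risen or fallen where that p was below 0.05. Recovered reads came to 7.22 to 11.2 M per ShOgt library, 9.85 to 13.2 M per ShLuc library, 4.59 to 12.8 M per OSMI-1 library and 4.52 to 5.93 M per Vehicle library. The targeted gene Ogt stood at 401, 418, 349, 430.0 and 524 in ShOgt libraries, against 737 to 1004 in ShLuc libraries, with no overlap (log2 fold change -0.98 ± 0.11, adjusted p = 1.11e-06). Under OSMI-1, Ogt mRNA was higher than under vehicle (0.40 ± 0.08, adjusted p = 0.00104). Libraries ShOgt 3, ShLuc 1 and ShLuc 3 and libraries OSMI-1 5 and Vehicle 1 stood apart on principal components, and OSMI-1 4 had the most reads and Vehicle 6 the fewest reads and the lowest share of the ribosomal precursor Rn45s (4.81% of reads) in the inhibitor arm. The highest share, 14.2%, was in Vehicle 2. The neural stem cell marker list was detected in every group, with a summed level of 35100 to 40500 in ShOgt and 38700 to 43400 in ShLuc libraries, and of 18500 to 20100 in OSMI-1 and 23200 to 27700 in Vehicle libraries. Among its genes, Vim rose and Slc1a3 and Pax6 fell after knockdown, and Egfr rose and Vim, Slc1a3, Fabp7 and Pax6 fell after OSMI-1. The 6 astrocyte markers summed to 4370 to 5350 in ShOgt and 4240 to 4590 in ShLuc libraries, and to 2610 to 2880 in OSMI-1 and 2120 to 2420 in Vehicle libraries; Slc1a2 fell after knockdown, and Aldh1l1 and S100b rose after OSMI-1. The 8 neuronal markers summed to 2920 to 3380 in ShOgt and 3430 to 4100 in ShLuc libraries, and to 2180 to 3070 in OSMI-1 and 1810 to 2350 in Vehicle libraries. Most of the neuronal sum was Map2, which averaged 2576 ± 163 in ShOgt and 3375 ± 257 in ShLuc libraries and 2459.8 ± 379 in OSMI-1 and 1862 ± 189 in Vehicle libraries. Map2 fell after knockdown (-0.39 ± 0.07, adjusted p = 0.000241) and rose after OSMI-1 (0.39 ± 0.09, adjusted p = 0.0024). Tubb3 went the other way (0.77 ± 0.13, adjusted p = 0.000108 after knockdown and -0.80 ± 0.17, adjusted p = 0.00109 after OSMI-1), and Snap25 fell after OSMI-1 (-1.68 ± 0.44, adjusted p = 0.00689). The 6 oligodendrocyte markers summed to 1660 to 2090 and 1470 to 1710 in ShOgt and ShLuc libraries, and to 755 to 1050 and 778 to 1050 in OSMI-1 and Vehicle libraries; Cnp rose after knockdown and Mbp fell after OSMI-1, and Mog was at 0 in the knockdown table. The 8 microglia markers summed to 22.6 to 42.7 in ShOgt, 7.46 to 29.9 in ShLuc, 11.9 to 24.1 in OSMI-1 and 7.65 to 25.1 in Vehicle libraries, with Cx3cr1 at 0 in the knockdown table and Aif1 at 0 in the inhibitor table. The 8 endothelial and mural markers summed to 22.4 to 108 in ShOgt, 19.9 to 41.3 in ShLuc, 44.7 to 116 in OSMI-1 and 87.8 to 109 in Vehicle libraries, with Cdh5 at 0 in the inhibitor table; Tek rose after knockdown. The part of cell composition in the changes below was not tested, and in bulk RNA a change in the number of cells of a type and in RNA per cell cannot be told apart.

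Ulk2, Atg14, Atg101 and Gabarapl1 were called higher in both arms, and Map1lc3b was called in opposite directions. Their promoter windows are shown because these 5 genes were called in both arms (RefSeq, build GRCm38.p6, 250 bases before to 50 after the annotated start, 5′ to 3′ on the gene's strand). Capitals mark CACGTG, the E-box core bound by TFEB and its relatives, transcription factors of lysosome and autophagy genes. The windows are chr11:61855043-61855342 on the minus strand (Ulk2), chr14:47568385-47568684 on the minus strand (Atg14), chr15:101284051-101284350 on the plus strand (Atg101), chr6:129532942-129533241 on the plus strand (Gabarapl1) and chr8:121590188-121590487 on the plus strand (Map1lc3b).
Ulk2: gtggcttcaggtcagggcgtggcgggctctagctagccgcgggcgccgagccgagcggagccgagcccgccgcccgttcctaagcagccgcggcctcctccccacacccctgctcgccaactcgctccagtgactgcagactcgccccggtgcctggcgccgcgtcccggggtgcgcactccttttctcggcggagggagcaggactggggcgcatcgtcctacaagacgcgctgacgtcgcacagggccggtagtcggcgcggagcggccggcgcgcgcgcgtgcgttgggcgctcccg
Atg14: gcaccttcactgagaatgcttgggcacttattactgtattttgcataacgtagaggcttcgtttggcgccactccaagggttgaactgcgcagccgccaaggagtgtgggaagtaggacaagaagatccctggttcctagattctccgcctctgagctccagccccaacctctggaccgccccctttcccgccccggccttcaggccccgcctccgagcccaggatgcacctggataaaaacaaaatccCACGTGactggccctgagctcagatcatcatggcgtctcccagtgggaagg
Atg101: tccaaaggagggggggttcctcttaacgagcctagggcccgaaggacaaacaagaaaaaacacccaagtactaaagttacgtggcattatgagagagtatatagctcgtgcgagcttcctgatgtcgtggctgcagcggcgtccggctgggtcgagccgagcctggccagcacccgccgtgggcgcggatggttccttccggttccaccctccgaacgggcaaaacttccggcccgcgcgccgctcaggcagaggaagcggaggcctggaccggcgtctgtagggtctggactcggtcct
Gabarapl1: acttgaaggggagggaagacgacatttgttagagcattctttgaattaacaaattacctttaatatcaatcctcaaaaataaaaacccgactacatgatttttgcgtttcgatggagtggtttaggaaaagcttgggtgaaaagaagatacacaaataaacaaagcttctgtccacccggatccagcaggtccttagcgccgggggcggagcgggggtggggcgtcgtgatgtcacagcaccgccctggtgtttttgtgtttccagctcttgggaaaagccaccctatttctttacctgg
Map1lc3b: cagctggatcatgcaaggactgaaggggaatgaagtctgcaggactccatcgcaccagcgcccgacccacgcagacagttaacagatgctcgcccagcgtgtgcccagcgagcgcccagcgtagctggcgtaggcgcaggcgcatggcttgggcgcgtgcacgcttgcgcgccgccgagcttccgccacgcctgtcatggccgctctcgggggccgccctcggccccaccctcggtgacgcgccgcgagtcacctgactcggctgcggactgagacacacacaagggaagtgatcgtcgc
Of these 5 windows, that of Atg14 holds CACGTG, starting 1 base before the annotated start. Across the members, 33 matched the promoter table with 39 windows, and 4 windows (10.3%) held CACGTG (Atg14, Atg3, Atg5 and Atg7), against 7.15% of all 32851 windows. The longer TCACGTGA, which contains CACGTG, was in 1 of the 39 (Atg3, 2.56%) against 0.974% of all, and TGTTTAC, a forkhead (FOXO) core, was in none against 3.65% of all. Both strands were searched. A match is a description of letters and says nothing about binding.

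Most autophagy genes had log2 fold changes above 0 in both arms. After Ogt knockdown, 14 of 38 tested members rose (36.8%) and 2 fell (5.26%), where 15.4% of all 12136 tested genes rose, 16.4% fell and 31.8% did either. After OSMI-1, 10 of 38 rose (26.3%) and none fell, where 11.6% of all 11349 tested genes rose, 13.2% fell and 24.8% did either. Log2 fold changes were above 0 for 30 members after knockdown and for 35 after OSMI-1. Their median was 0.18 after knockdown, against 0.01 over all tested genes, and 0.16 after OSMI-1, against 0.00. The changes were small: they lay between -0.41 and 0.93 after knockdown and between -0.17 and 0.83 after OSMI-1. Every ShOgt library lay above every ShLuc library for 8 members and below it for 1, where this held for 8.83% and 9.96% of all tested genes. Every OSMI-1 library lay above every Vehicle library for 4 members and below it for none, where this held for 6.27% and 7.71% of all tested genes. Together the 39 members took 0.346 to 0.360% of reads in ShOgt libraries and 0.289 to 0.318% in ShLuc libraries, and 0.327 to 0.348% in OSMI-1 libraries and 0.263 to 0.304% in Vehicle libraries, with no overlap in either arm. These are shares of all reads, Rn45s included. Among Vehicle libraries the lowest share was in Vehicle 2 (14.2% Rn45s) and the highest in Vehicle 6 (4.81% Rn45s). Abundant members such as Sqstm1 and Map1lc3b weigh most in them. No such share is given for other gene sets, so the lack of overlap is not read as a shift of every member. Without the 3 knockdown libraries that stood apart, 12 members rose and 2 fell. Without OSMI-1 5 and Vehicle 1, 9 rose, and without OSMI-1 4 and Vehicle 6, 7 rose, with none falling in either case. Without Vehicle 2 alone, 10 rose and none fell. With no filter on low values, and so more genes to adjust over, 10 rose after knockdown and 9 after OSMI-1: Atg101 (0.0542), Atg4c (0.0582), Optn (0.0605) and Pik3c3 (0.065) missed the threshold after knockdown, and Atg14 (0.0533) after OSMI-1. The arms differ in agent, in duration and in the table they were normalized in, and these cannot be told apart.

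**Figure D1:**
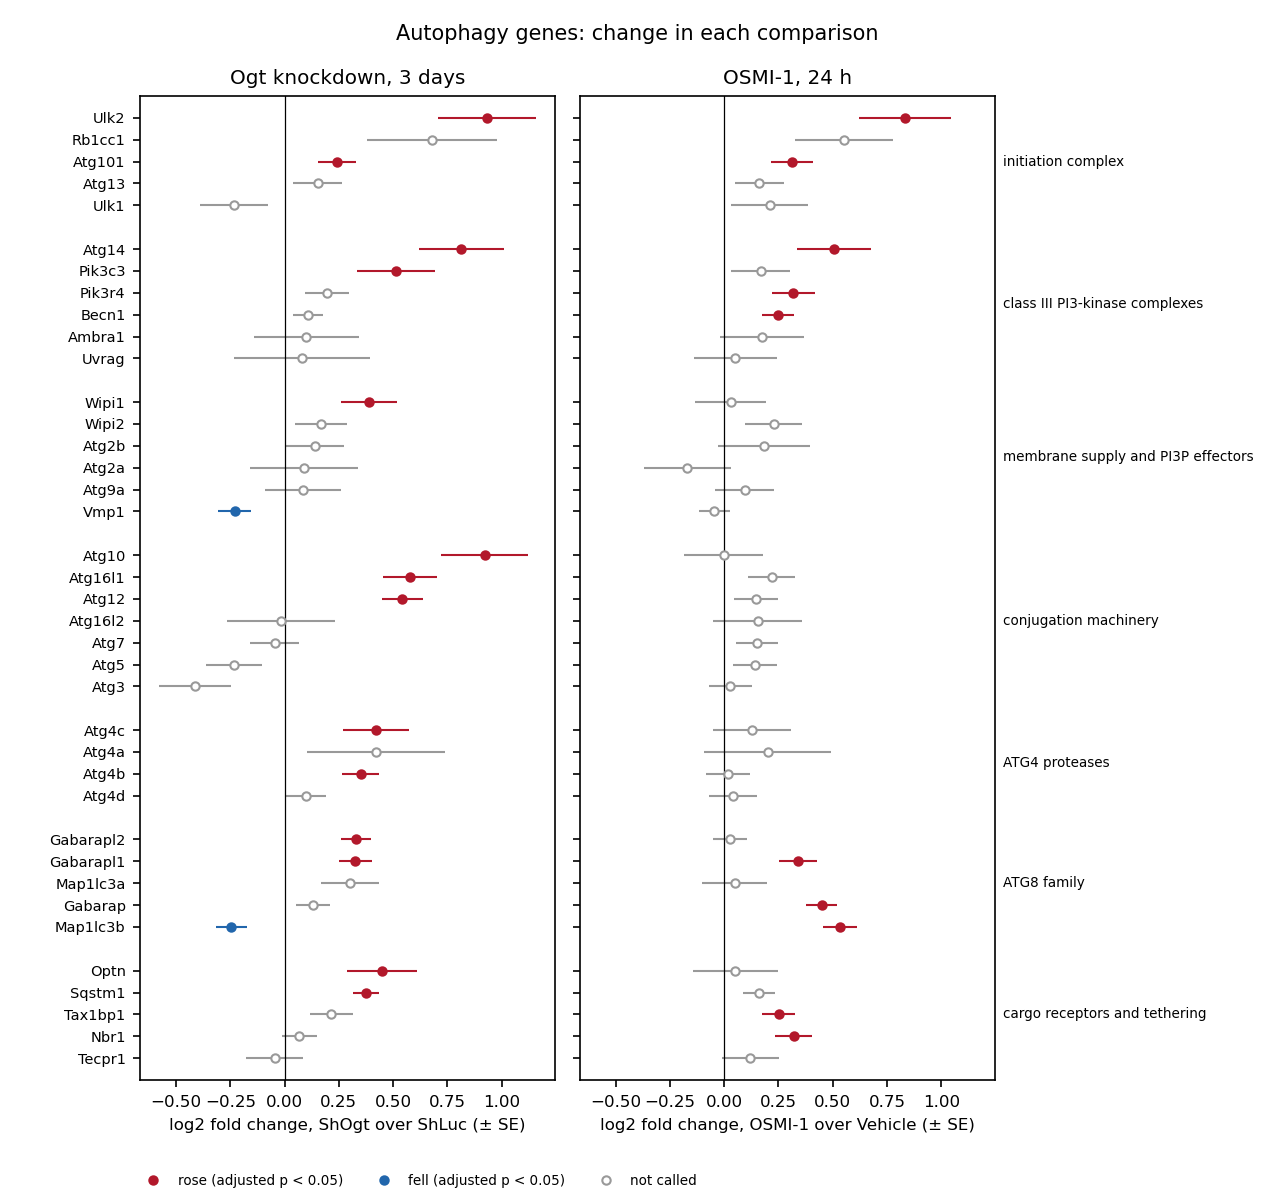
Log2 fold change (± SE, limma) of the 38 tested autophagy genes, ordered by role, for ShOgt (n = 5) over ShLuc (n = 6) on the left and OSMI-1 (n = 5) over Vehicle (n = 6) on the right. Filled red points rose and filled blue points fell at adjusted p under 0.05, and open points were not called; 14 rose and 2 fell after knockdown, and 10 rose and none fell after OSMI-1.

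**Figure D2:**
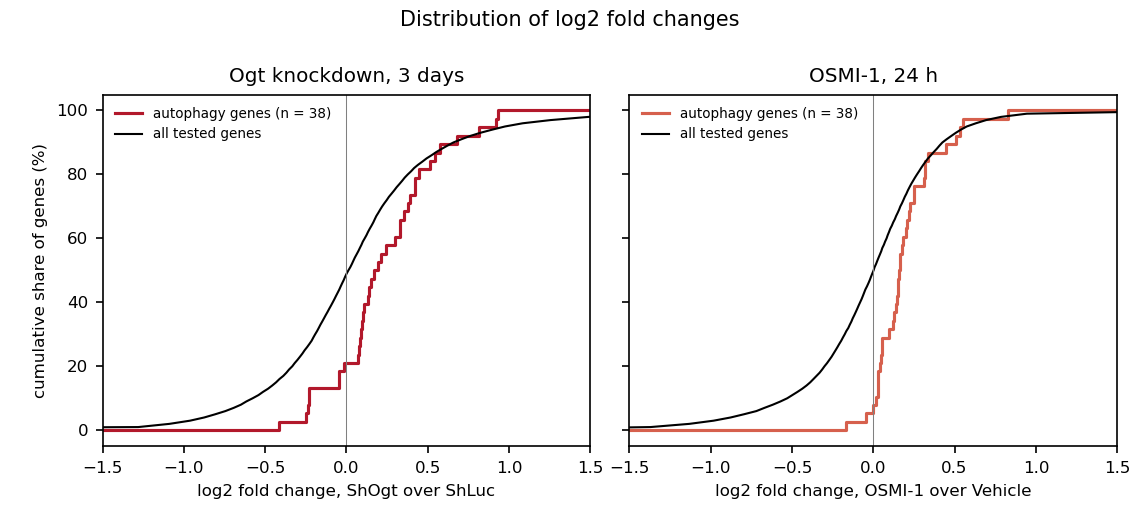
Cumulative share (%) of the 38 tested autophagy genes (coloured steps) and of all tested genes (black) up to each log2 fold change, for ShOgt over ShLuc on the left and OSMI-1 over Vehicle on the right. The coloured lines lie to the right of the black ones near 0 (medians 0.18 against 0.01, and 0.16 against 0.00) and stay within -0.41 to 0.93 and -0.17 to 0.83.

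The share of all tested genes called in both arms was not computed, so the division of calls below is not read as a trait of the members. The background shares above also apply to the counts by role below. With 4 to 7 genes in a role, these counts are not read as a trait of the role. In both arms Ulk2, Atg14, Atg101 and Gabarapl1 rose. After knockdown alone the test called Atg10, Atg12, Atg16l1, Atg4b, Atg4c, Gabarapl2, Optn, Pik3c3, Sqstm1 and Wipi1 higher and Vmp1 lower, and after OSMI-1 alone Becn1, Gabarap, Nbr1, Pik3r4 and Tax1bp1 higher. Map1lc3b fell after knockdown and rose after OSMI-1, and 17 members were called in neither arm. A call in 1 arm does not show a difference between arms, which is tested below. Atg9b, a homologue of the lipid scramblase ATG9A, did not pass the filter on low counts in either arm, with a mean of 4.20 ± 3.95 in ShOgt and 7.80 ± 8.62 in ShLuc libraries, and of 0.567 in OSMI-1 and 2.60 in Vehicle libraries.

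Of the 5 genes of the initiation complex, 2 rose in each arm and none fell, with a median log2 fold change of 0.24 after knockdown and 0.31 after OSMI-1. Ulk2 encodes a serine/threonine kinase that, like its relative ULK1, starts autophagosome formation. Its level was 167, 142, 161, 122 and 160.2 in the ShOgt libraries (replicates 1, 2, 3, 5 and 6, the order used throughout), against 41.8 to 117 with a median of 74.8 in the 6 ShLuc libraries. Every ShOgt library was above every ShLuc library, and the log2 fold change was 0.93 ± 0.23, adjusted p = 0.00353. OSMI-1 libraries (replicates 1, 2, 4, 5 and 6) had 93.9, 98.3, 51.6, 77.6 and 71.0, against 30.0 to 52.6 with a median of 47.0 in Vehicle libraries, with 1 of the 5 inside the Vehicle range (0.83 ± 0.21, adjusted p = 0.00566). This was the largest log2 fold change among the members in each arm. Atg101 encodes a HORMA-domain partner of ATG13 in the ULK complex. It stood at 1103, 1228, 1245, 984 and 1057 in ShOgt libraries and 826 to 1081 with a median of 941 in ShLuc libraries, so the groups overlapped (0.24 ± 0.09, adjusted p = 0.0398). That knockdown call was lost without ShOgt 1, 2 or 3 or ShLuc 1, 4, 5 or 6 (adjusted p between 0.0621 and 0.114), without ShOgt 3, ShLuc 1 and ShLuc 3 together (0.0701) and with TMM scaling (0.0512). In the inhibitor arm Atg101 had 414, 450.1, 391, 382 and 465 in OSMI-1 libraries, all above the 291 to 378 with a median of 341 of Vehicle libraries (0.31 ± 0.10, adjusted p = 0.0211). Without OSMI-1 2 (0.0556) or OSMI-1 6 (0.0607) it missed the threshold.

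Ulk1, the relative best known as the initiating kinase, was called in neither arm. It had 113, 106, 131, 114 and 153 in ShOgt libraries and 133 to 187 with a median of 134 in ShLuc libraries (-0.23 ± 0.16, adjusted p = 0.273). In the inhibitor arm the values were 83.8, 88.2, 76.2, 66.8 and 131 in OSMI-1 and 60.2 to 98.7 with a median of 74.8 in Vehicle libraries (0.21 ± 0.18, adjusted p = 0.43). The groups overlapped in both arms. Rb1cc1, which encodes the scaffold FIP200, averaged 66.9 ± 29.9 in ShOgt and 40.7 ± 13 in ShLuc libraries (0.68 ± 0.30, adjusted p = 0.0921) and 83.3 ± 15 in OSMI-1 and 59.6 ± 26.2 in Vehicle libraries (0.55 ± 0.22, adjusted p = 0.0773). Atg13, the adaptor that links the kinase to FIP200, averaged 458 ± 58.8 in ShOgt and 412 ± 49.9 in ShLuc libraries (log2 fold change 0.15) and 239 ± 29 in OSMI-1 and 213 ± 23.7 in Vehicle libraries (0.16), neither of which passed.

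All 6 genes of the class III PI3-kinase complexes had a log2 fold change above 0 in both arms; 2 rose after knockdown and 3 after OSMI-1. Atg14 encodes the subunit that directs the complex to the site of autophagosome formation. Its level was 280.2, 214, 179, 143 and 249.7 in ShOgt and 83.5 to 168 with a median of 115 in ShLuc libraries, with 4 of 5 ShOgt libraries above all of ShLuc (0.81 ± 0.20, adjusted p = 0.00334). After OSMI-1 it had 77.5, 87.2, 128, 122 and 101, against 58.3 to 83.7 with a median of 73.6 in Vehicle libraries (0.51 ± 0.17, adjusted p = 0.0318). The inhibitor call was lost without OSMI-1 4, 5 or 6 or Vehicle 3, 4 or 6 (adjusted p between 0.0508 and 0.0971), without OSMI-1 5 and Vehicle 1 together (0.0634) and without OSMI-1 4 and Vehicle 6 together (0.132). It was also lost with the replicate number as a block (0.101). Pik3c3 encodes VPS34, the lipid kinase itself. It had 286, 364, 296, 293 and 479 in ShOgt libraries and 169 to 329.6 with a median of 250.4 in ShLuc libraries, which overlapped (0.51 ± 0.18, adjusted p = 0.0355). The call did not hold without ShOgt 2 or 6 or ShLuc 3, 4 or 5 (adjusted p between 0.0556 and 0.116). After OSMI-1 Pik3c3 had 190.5, 164, 217, 153 and 214, against 132 to 210.4 with a median of 165 in Vehicle libraries (0.17 ± 0.14, adjusted p = 0.405).

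Becn1 encodes Beclin 1, the regulatory core subunit of the complex, and was called after OSMI-1. OSMI-1 libraries had 1071, 1142, 1061, 1229 and 1108, all above the 846 to 1034 with a median of 956 of Vehicle libraries (0.25 ± 0.07, adjusted p = 0.0175). That adjusted p was 0.0524 without OSMI-1 5 and 0.0638 with the replicate number as a block. After knockdown it had 2751, 2753, 2767, 2441 and 2528 in ShOgt and 2218 to 2694 with a median of 2420.3 in ShLuc libraries, which overlapped (0.11 ± 0.07, adjusted p = 0.263). Pik3r4 encodes VPS15, the kinase's membrane anchor. It had 357, 308, 414, 359 and 347 in OSMI-1 libraries and 259.8 to 327 with a median of 274 in Vehicle libraries, with 4 of 5 above the Vehicle range (0.32 ± 0.10, adjusted p = 0.02). Without OSMI-1 4 that value was 0.0656, and without OSMI-1 5 and Vehicle 1 it was 0.0575, and without OSMI-1 4 and Vehicle 6 it was 0.114. In the knockdown arm Pik3r4 had 709.7, 614, 726, 786 and 606 in ShOgt and 543 to 740.2 with a median of 571 in ShLuc libraries (0.20 ± 0.10, adjusted p = 0.153). Uvrag, the alternative subunit that works in endosomal traffic, and Ambra1, a Beclin 1 activator, were called in neither arm. Uvrag averaged 83.4 ± 25.6 in ShOgt and 86.3 ± 50.2 in ShLuc libraries and 58.3 ± 9.24 in OSMI-1 and 56.6 ± 12 in Vehicle libraries, and Ambra1 123 ± 29.3 in ShOgt and 119.8 ± 38.7 in ShLuc libraries and 75.6 ± 15.6 in OSMI-1 and 67.4 ± 16.2 in Vehicle libraries, with log2 fold changes between 0.05 and 0.18.

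Among the genes of membrane supply and PI3P effectors, 1 of 6 tested rose and 1 fell after knockdown, and none was called after OSMI-1 (medians 0.11 and 0.06). Vmp1 encodes an endoplasmic reticulum scramblase that acts while the autophagosome grows. ShOgt libraries had 1047, 1195, 1077, 1266 and 1271, all below the 1283 to 1443 with a median of 1376 of ShLuc libraries (-0.23 ± 0.08, adjusted p = 0.0243). Its call was lost without ShOgt 1 (0.085), ShOgt 3 (0.053) or ShLuc 2 (0.0504). OSMI-1 libraries had 810.2, 856, 796, 789.9 and 799.5, inside the Vehicle range of 769 to 902 with a median of 832 (-0.05 ± 0.07, adjusted p = 0.692). Wipi1 encodes a PI3P-binding WD-repeat protein that marks the forming membrane. It had 416, 333, 419, 344 and 407 in ShOgt and 241 to 374 with a median of 295 in ShLuc libraries, with 3 of 5 above the ShLuc range (0.39 ± 0.13, adjusted p = 0.0264). Any of ShOgt 1, 3 or 6 or ShLuc 1, 2 or 6 left out ended that call (adjusted p between 0.0513 and 0.0721). In the inhibitor arm Wipi1 had 91.1, 144, 117, 84.7 and 80.2 in OSMI-1 and 82.7 to 122 with a median of 97.6 in Vehicle libraries (0.03 ± 0.16, adjusted p = 0.918). Its relative Wipi2, which recruits ATG16L1, averaged 1367 ± 129 in ShOgt and 1234 ± 239 in ShLuc libraries and 642 ± 71.5 in OSMI-1 and 558 ± 114 in Vehicle libraries (log2 fold changes 0.17 and 0.23, not called). The lipid transfer genes Atg2a (208 ± 48 in ShOgt and 208 ± 85.8 in ShLuc libraries; 102 ± 27.7 in OSMI-1 and 113 ± 27.1 in Vehicle libraries) and Atg2b (327 ± 37.3 in ShOgt and 299.8 ± 55.6 in ShLuc libraries; 118 ± 33 in OSMI-1 and 105 ± 32.7 in Vehicle libraries) and the scramblase gene Atg9a (379 ± 41.9 in ShOgt and 372 ± 125 in ShLuc libraries; 199 ± 50.4 in OSMI-1 and 182 ± 13.8 in Vehicle libraries) did not pass in either arm.

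The conjugation machinery did not move as a block after knockdown: 3 of 7 genes rose, none fell, 4 had log2 fold changes below 0 and the median was -0.02. After OSMI-1 none of the 7 was called and the median was 0.15. The risers belong to the branch that builds the ATG12–ATG5–ATG16L1 complex. Atg10 (GRCm38 chromosome 13, 90935356 to 91223968, minus strand) encodes the E2-like enzyme that joins ATG12 to ATG5. It had 161, 109, 107, 158 and 158 in ShOgt libraries, all above the 52.2 to 94.8 with a median of 72.6 of ShLuc libraries (0.92 ± 0.20, adjusted p = 0.00165). In OSMI-1 libraries it had 70.2, 54.7, 68.9, 60.9 and 84.8, against 55.6 to 86.8 with a median of 63.1 in Vehicle libraries, which overlapped (0.00 ± 0.18, adjusted p = 0.994). Atg12 encodes the ubiquitin-like modifier of that branch. Its values were 712, 672, 658, 634 and 775 in ShOgt libraries, all above 400.1 to 541 with a median of 475 in ShLuc libraries (0.54 ± 0.10, adjusted p = 0.000232). Under OSMI-1 they were 426, 386, 322, 387 and 351, against 287 to 404 with a median of 325 in Vehicle libraries (0.15 ± 0.10, adjusted p = 0.32). Atg16l1 encodes the scaffold that brings the conjugate to the membrane. It had 899, 952, 751, 646 and 803 in ShOgt libraries, all above 397 to 645 with a median of 574 in ShLuc libraries, though ShOgt 5 and the highest ShLuc library were close (0.58 ± 0.12, adjusted p = 0.00136). OSMI-1 libraries had 234, 238, 222, 199 and 222, against 175 to 230.4 with a median of 185 in Vehicle libraries (0.22 ± 0.11, adjusted p = 0.146).

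Atg5, the acceptor of ATG12, and Atg7, the shared E1-like enzyme, were called in neither arm. Atg5 had 334, 258, 279.5, 371 and 387 in ShOgt and 298 to 413 with a median of 401 in ShLuc libraries (-0.23 ± 0.13, adjusted p = 0.179). In the inhibitor arm Atg5 had 344, 331, 283, 274 and 328 in OSMI-1 and 240.1 to 337 with a median of 280.1 in Vehicle libraries (0.14 ± 0.10, adjusted p = 0.339). The groups overlapped in both arms. Atg7 had 675, 669, 706, 648 and 659 in ShOgt libraries, within the ShLuc range of 541 to 850.5 with a median of 742 (-0.05 ± 0.11, adjusted p = 0.797), and 239.7, 240.2, 206, 233 and 229 in OSMI-1 libraries, against 199.8 to 213 with a median of 206 in Vehicle libraries (0.15 ± 0.10, adjusted p = 0.272). Atg3, the E2-like enzyme that passes ATG8 proteins to lipid, averaged 479 ± 61.4 in ShOgt and 659 ± 196 in ShLuc libraries (-0.41 ± 0.16, adjusted p = 0.0627), the lowest log2 fold change of any member after knockdown, and 344 ± 44.3 in OSMI-1 and 335 ± 22 in Vehicle libraries (0.03). In the authors' deposited table Atg3 has a log2 fold change of -0.46 (ShOgt over ShLuc) and an adjusted p of 0.0265, the 1 member called there and not by limma. Atg16l2, a relative of Atg16l1, averaged 119 ± 61.1 in ShOgt and 110.5 ± 17.8 in ShLuc libraries and 51.5 ± 10.5 in OSMI-1 and 46.3 ± 9.33 in Vehicle libraries and was not called.

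**Figure D3:**
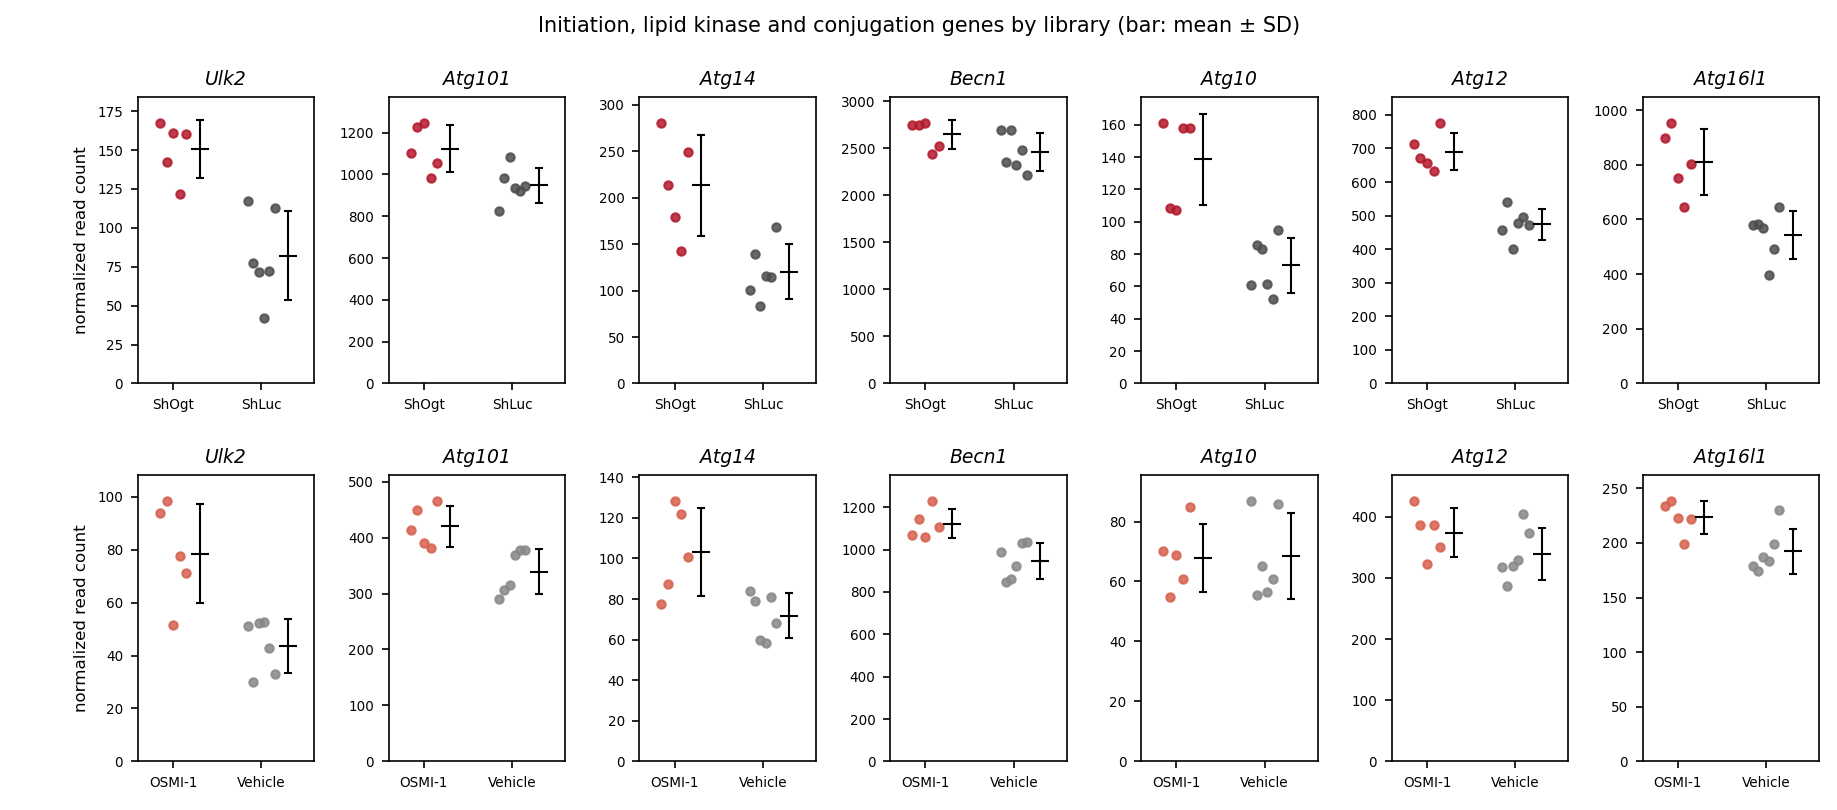
Normalized read counts of 7 initiation, lipid kinase and conjugation genes, 1 point per library, with bars for mean ± SD; ShOgt (n = 5) and ShLuc (n = 6) in the upper row, OSMI-1 (n = 5) and Vehicle (n = 6) in the lower row. Ulk2, Atg10, Atg12 and Atg16l1 separate without overlap in the upper row, and Atg101 and Becn1 in the lower row.

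Among the ATG4 proteases, which trim ATG8 proteins before conjugation and free them from lipid afterwards, 2 of 4 rose after knockdown and none was called after OSMI-1 (medians 0.39 and 0.08). Atg4b, the most active of them on LC3 in mammalian cells, had 1689.8, 1797, 1649, 1468 and 1447 in ShOgt libraries, all above the 1056 to 1358 with a median of 1321 of ShLuc libraries (0.35 ± 0.09, adjusted p = 0.0038). OSMI-1 libraries had 462, 457, 426, 375 and 447, within the Vehicle range of 322 to 495 with a median of 439.8 (0.02 ± 0.10, adjusted p = 0.925). Atg4c had 221, 179, 182, 230.5 and 143 in ShOgt and 115 to 155 with a median of 144 in ShLuc libraries, with ShOgt 6 inside the ShLuc range (0.42 ± 0.15, adjusted p = 0.04). The Atg4c call was lost without ShOgt 1, 2, 3 or 5 or ShLuc 1, 4 or 5 (adjusted p between 0.0518 and 0.114), without the 3 libraries that stood apart (0.0962) and with the replicate number as a block (0.0755). Under OSMI-1, Atg4c had 133, 129.8, 69.7, 137 and 117, against 85.1 to 147 with a median of 103 in Vehicle libraries (0.13 ± 0.18, adjusted p = 0.66). Atg4a averaged 42.2 ± 17.2 in ShOgt and 30.6 ± 9.17 in ShLuc libraries and 28.0 ± 8.23 in OSMI-1 and 24.9 ± 9.54 in Vehicle libraries, and Atg4d 691 ± 65.5 in ShOgt and 645 ± 60.8 in ShLuc libraries and 249 ± 41.6 in OSMI-1 and 239.6 ± 13 in Vehicle libraries. Neither passed in either arm.

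Of the 5 ATG8 genes, 2 rose and 1 fell after knockdown, and 3 rose and none fell after OSMI-1 (medians 0.30 and 0.34). Map1lc3b (GRCm38 chromosome 8, 121590361 to 121598760, plus strand) encodes LC3B, the ATG8 protein most used as an autophagosome marker. It had 3356, 3170.4, 3704, 3310.1 and 3073 in ShOgt libraries and 3657 to 4492 with a median of 3771 in ShLuc libraries, with 4 of 5 ShOgt libraries below all of ShLuc, and it fell (-0.25 ± 0.07, adjusted p = 0.0118). In OSMI-1 libraries it had 2381, 2603, 2139, 2327 and 2253, all above the 1351 to 1883 with a median of 1638 of Vehicle libraries, and it rose (0.53 ± 0.08, adjusted p = 1.84e-05). Gabarap, founding member of the GABARAP subfamily, had 1281, 1430.3, 1533, 1591 and 1611 in OSMI-1 libraries, all above 998 to 1127 with a median of 1103 in Vehicle libraries (0.45 ± 0.07, adjusted p = 5.48e-05). After knockdown Gabarap had 2389, 2372, 2257, 2297 and 2269 in ShOgt libraries, inside the ShLuc range of 1842 to 2503 with a median of 2104 (0.13 ± 0.08, adjusted p = 0.214), and without ShOgt 3, ShLuc 1 and ShLuc 3 that adjusted p was 0.0178. Gabarapl1, a GABARAP relative abundant in brain, rose in both arms. It had 1891, 1755, 1640.3, 1943 and 1716 in ShOgt libraries, all above 1291 to 1559 with a median of 1420.4 in ShLuc libraries (0.33 ± 0.08, adjusted p = 0.00259). In OSMI-1 libraries Gabarapl1 had 920.5, 818, 879.6, 741 and 672, with 4 of 5 above the 581 to 695 with a median of 619.8 of Vehicle libraries (0.34 ± 0.09, adjusted p = 0.00591). Gabarapl2 encodes GATE-16, a GABARAP relative also studied in Golgi traffic. It had 1382, 1359, 1447, 1329 and 1293 in ShOgt libraries, all above 1006 to 1163 with a median of 1090.1 in ShLuc libraries (0.33 ± 0.07, adjusted p = 0.00129). OSMI-1 libraries had 840.3, 934, 749, 1008 and 909.5 of Gabarapl2, which overlapped the 832 to 951 with a median of 841 of Vehicle libraries (0.03 ± 0.08, adjusted p = 0.839). Map1lc3a, which encodes LC3A, averaged 742 ± 84.8 in ShOgt and 611 ± 132 in ShLuc libraries (0.30 ± 0.13, adjusted p = 0.0911) and 338 ± 65.1 in OSMI-1 and 329 ± 71.1 in Vehicle libraries (0.05 ± 0.15, adjusted p = 0.853). These genes are related in sequence, and how reads shared between relatives were divided is not given in the sources used here.

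**Figure D4:**
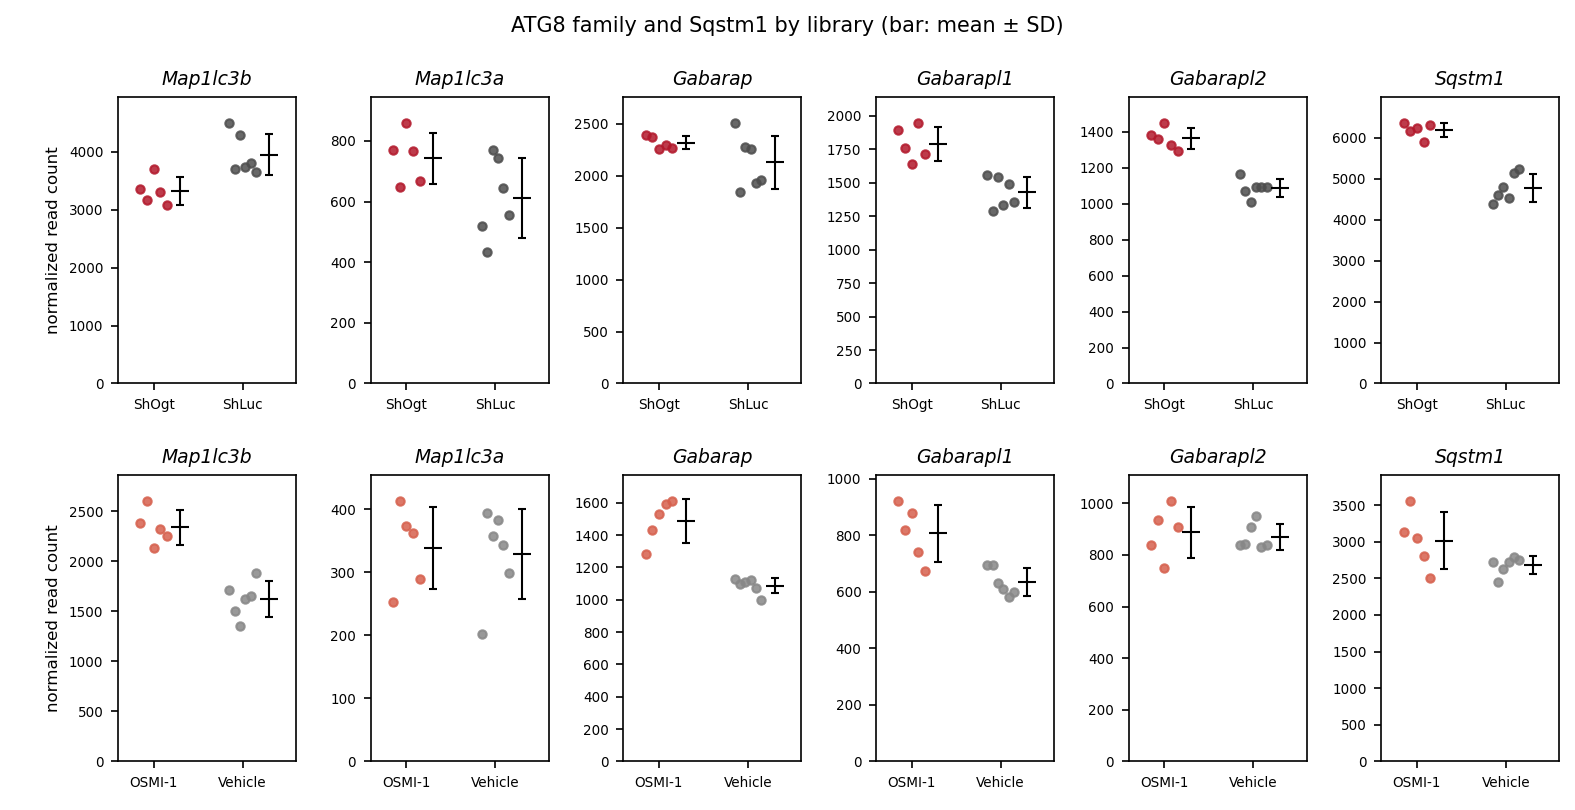
Normalized read counts of the ATG8 family genes and of Sqstm1, 1 point per library, with bars for mean ± SD; ShOgt (n = 5) and ShLuc (n = 6) in the upper row, OSMI-1 (n = 5) and Vehicle (n = 6) in the lower row. Map1lc3b is lower in ShOgt than in ShLuc (log2 -0.25) and higher in OSMI-1 than in Vehicle (0.53), while Gabarapl1 is higher in both (0.33 and 0.34).

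Among cargo receptors and tethering factors, 2 of 5 rose in each arm and none fell. The genes called were not the same, but the difference between arms passed for none of them. Its adjusted p by the interaction contrast described below was 0.11 for Sqstm1, 0.278 for Optn, 0.136 for Nbr1 and 0.875 for Tax1bp1. Sqstm1 (GRCm38 chromosome 11, 50199366 to 50210827, minus strand) encodes p62, a receptor that binds ubiquitinated cargo and ATG8 proteins. It had 6358, 6157, 6232, 5912 and 6322 in ShOgt libraries, all above 4378 to 5246 with a median of 4696 in ShLuc libraries (0.38 ± 0.06, adjusted p = 8.82e-05). OSMI-1 libraries had 3130.5, 3553, 3056, 2810.1 and 2502, with 4 of 5 above the 2456 to 2785 with a median of 2722 of Vehicle libraries (0.16 ± 0.07, adjusted p = 0.125), and without OSMI-1 6 Sqstm1 passed (0.0242). Optn, optineurin, a receptor in mitophagy and in the clearance of bacteria, had 172, 173, 236, 160.1 and 182 in ShOgt and 104 to 161 with a median of 140.0 in ShLuc libraries, with ShOgt 5 inside the ShLuc range (0.45 ± 0.16, adjusted p = 0.0393). Its call was lost without ShOgt 1, 2, 3 or 6 or ShLuc 1, 4 or 6 (adjusted p between 0.0582 and 0.109), without the 3 libraries that stood apart (0.137) and with the replicate number as a block (0.0755). In the inhibitor arm Optn had 79.3, 73.0, 68.0, 53.7 and 55.0 in OSMI-1 and 45.6 to 83.7 with a median of 66.4 in Vehicle libraries (0.05 ± 0.20, adjusted p = 0.881).

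Nbr1, a p62-like receptor, had 1094, 959, 1049, 840.0 and 928 in OSMI-1 libraries, with 4 of 5 above the 663 to 879 with a median of 783 of Vehicle libraries (0.32 ± 0.09, adjusted p = 0.00869, and 0.056 without OSMI-1 4 and Vehicle 6). In ShOgt libraries Nbr1 had 1443, 1469.8, 1621, 1356 and 1437, against 1224 to 1619.9 with a median of 1391 in ShLuc libraries (0.07 ± 0.08, adjusted p = 0.566). Tax1bp1, a receptor that cooperates with NBR1 and p62, had 1121, 1056, 1049, 1131 and 1251 in OSMI-1 libraries and 824 to 1053 with a median of 958 in Vehicle libraries (0.25 ± 0.08, adjusted p = 0.0196). The call did not hold without OSMI-1 6 (0.0635), Vehicle 3 (0.055) or Vehicle 4 (0.0519), or with the replicate number as a block (0.0716). After knockdown Tax1bp1 had 1563, 1818, 1349.5, 1830.0 and 1979 in ShOgt and 1252 to 1635 with a median of 1467 in ShLuc libraries (0.21 ± 0.10, adjusted p = 0.106), and it passed without ShOgt 3 (0.0167) and with the replicate number as a block (0.0425). Tecpr1, which tethers autophagosomes to lysosomes, averaged 537 ± 107 in ShOgt and 553 ± 85.6 in ShLuc libraries and 272 ± 59.8 in OSMI-1 and 247 ± 32.7 in Vehicle libraries and was not called.

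The arms were then set against each other in 1 model over all 22 libraries, in which the log2 fold change after OSMI-1 was subtracted from that after knockdown. Of 38 members 5 differed, 3 higher after knockdown and 2 lower, where 11.5% of 11269 genes were higher, 11.4% lower and 22.9% either. The difference was -0.78 ± 0.11, adjusted p = 1.83e-06 for Map1lc3b and 0.92 ± 0.27, adjusted p = 0.0122 for Atg10, and these 2 kept their call in all 25 alternatives, each left-out library included. The other 3 were Atg12 (0.40 ± 0.14, adjusted p = 0.0364), Gabarapl2 (0.30 ± 0.10, adjusted p = 0.0318) and Gabarap (-0.32 ± 0.11, adjusted p = 0.0284). Atg12 missed the threshold without ShOgt 1 or 6, ShLuc 3, OSMI-1 4 or 6, or Vehicle 5 or 6 (adjusted p between 0.0612 and 0.0792). Gabarapl2 missed it without ShOgt 1 or 3, ShLuc 3, OSMI-1 1 or 4, or Vehicle 3 or 4 (up to 0.0784), and Gabarap without ShLuc 1 (0.0502), OSMI-1 5 (0.0525) or OSMI-1 6 (0.0565). The count of members that differed was 3 without ShOgt 1, OSMI-1 4 or OSMI-1 6. These 5 of 38 are a smaller share than the 22.9% over all genes, so the count is not read as a trait of the members. By role, 3 were ATG8 genes and the other 2 belong to the ATG12 conjugation branch, and this split was not tested. For the other 33 members, among them every remaining gene called in 1 arm, the difference between arms did not pass.

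Levels between genes were compared per kilobase of the longest coding transcript, as means within a group. Sqstm1, Gabarap and Map1lc3b led in all 4 groups. Their per-kilobase levels were 2320 ± 66.3, 1720 ± 44.5 and 1260 ± 91.5 in ShOgt libraries, and 1790 ± 130, 1570 ± 189 and 1500 ± 134 in ShLuc libraries (SD). In ShLuc libraries Gabarap and Map1lc3b thus lay within their spread of each other. The same 3 genes stood at 1130 ± 146, 1100 ± 100 and 889 ± 65.6 per kilobase in OSMI-1 libraries, and at 1000 ± 45.1, 805 ± 35.9 and 616 ± 68.9 in Vehicle libraries. Sqstm1 and Gabarap lay within their spread in OSMI-1 libraries. Gabarapl1 had the next mean in the knockdown arm (983 ± 68.8 in ShOgt, 784 ± 63.7 in ShLuc), and Gabarapl2 in the inhibitor arm (530 ± 58.6 in OSMI-1, 518 ± 29.6 in Vehicle). Atg101 followed Gabarapl1 in the knockdown arm (885 ± 88.1 in ShOgt, 747 ± 65.7 in ShLuc), and in ShLuc libraries these 2 lay within their spread of each other.

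Exons of several members overlap another gene, which matters where counting ignores strand, and whether strand was used in counting is not given in the sources used here. Map1lc3b overlaps Zcchc14 on the opposite strand, which averaged 314 ± 34.1 in ShOgt and 323 ± 38.7 in ShLuc libraries (-0.04 ± 0.12, adjusted p = 0.822) and was not called after OSMI-1 either (-0.22 ± 0.14, adjusted p = 0.296). Becn1 overlaps Cntd1, at 17.1 ± 6.53 in ShOgt and 28.8 ± 10.9 in ShLuc libraries. In the inhibitor arm Cntd1 did not pass the filter, at 6.24 ± 3.15 in OSMI-1 and 10.8 ± 4.86 in Vehicle libraries. Gskip, opposite Atg2b, fell after knockdown (-0.39 ± 0.10, adjusted p = 0.00627) and rose after OSMI-1 (0.30 ± 0.10, adjusted p = 0.0274). Ankzf1, opposite Atg9a, rose after knockdown (0.76 ± 0.21, adjusted p = 0.00938) and was not called after OSMI-1. Mir21a, on the same strand as Vmp1, had no reads in either arm. Gabarapl1 overlaps 1700101I11Rik on the opposite strand, which did not pass the filter. It averaged 1.70 in ShOgt and 1.58 in ShLuc libraries, and 1.37 in OSMI-1 and 1.07 in Vehicle libraries. Atg14, Optn, Sqstm1, Tax1bp1, Rb1cc1 and Uvrag each overlap a gene on the opposite strand that is not in the tables. For these genes the reads of the partner cannot be told apart from those of the member if strand was ignored. Atg9a also overlaps Gm29253 on the same strand, which is not in the tables, so those reads cannot be told apart even if strand was used.

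A further list of 42 names covered other autophagy genes (selective receptors, PI3P effectors, fusion factors), of which 38 are in the tables and 35 were tested (Fam134b, Vamp8 and Dram1 did not pass the filter). In it, 13 rose and 4 fell after knockdown (37.1% and 11.4%, median 0.21), and 12 rose and 3 fell after OSMI-1 (34.3% and 8.57%, median 0.22). The background shares are those given above. After knockdown the largest rises were in Calcoco1, a receptor for autophagy of the endoplasmic reticulum and Golgi (1333 ± 100.4 in ShOgt and 762 ± 114 in ShLuc libraries; 0.82 ± 0.10, adjusted p = 3.27e-06), Pink1, the kinase that marks damaged mitochondria (271 ± 68.4 in ShOgt and 153 ± 25.8 in ShLuc libraries; 0.81 ± 0.17, adjusted p = 0.00102), Plekhm1, an adaptor for fusion with lysosomes (180.4 ± 42.1 in ShOgt and 106 ± 31.6 in ShLuc libraries; 0.80 ± 0.24, adjusted p = 0.0152), and Wdr45, a WIPI-family PI3P effector (582 ± 60.3 in ShOgt and 377 ± 75 in ShLuc libraries; 0.64 ± 0.13, adjusted p = 0.000765). The 4 that fell were Wdr45b, the WIPI-family relative of Wdr45 (570.0 ± 116 in ShOgt and 1148 ± 123 in ShLuc libraries; -1.03 ± 0.12, adjusted p = 3.41e-06), the mitophagy receptor gene Bcl2l13 (519.8 ± 70.3 in ShOgt and 724 ± 108 in ShLuc libraries; -0.47 ± 0.12, adjusted p = 0.00447), Trp53inp2, which binds ATG8 proteins (1996 ± 229.9 in ShOgt and 2421 ± 148 in ShLuc libraries; -0.28 ± 0.08, adjusted p = 0.00921), and Phb2, an inner mitochondrial membrane prohibitin (3071 ± 195 in ShOgt and 3695 ± 141 in ShLuc libraries; -0.27 ± 0.06, adjusted p = 0.00224). The related Wdr45 and Wdr45b were thus called in opposite directions after knockdown. After OSMI-1 the largest rises were in Wdr45 (227 ± 25.4 in OSMI-1 and 146 ± 29.8 in Vehicle libraries; 0.65 ± 0.14, adjusted p = 0.00156), Ccpg1, a receptor for autophagy of the endoplasmic reticulum (528 ± 55.3 in OSMI-1 and 363 ± 38.1 in Vehicle libraries; 0.54 ± 0.09, adjusted p = 0.000164), Ei24, a membrane protein of the endoplasmic reticulum (435 ± 38.3 in OSMI-1 and 323 ± 41.7 in Vehicle libraries; 0.43 ± 0.10, adjusted p = 0.00307) and Tex264, another such receptor (574 ± 72.4 in OSMI-1 and 429 ± 38.7 in Vehicle libraries; 0.42 ± 0.09, adjusted p = 0.00211). The 3 that fell were Bag3, a co-chaperone of chaperone-assisted autophagy (221 ± 33.5 in OSMI-1 and 281 ± 27.1 in Vehicle libraries; -0.35 ± 0.11, adjusted p = 0.0238), the reticulon gene Rtn3 (1809 ± 266 in OSMI-1 and 2085 ± 85 in Vehicle libraries; -0.22 ± 0.08, adjusted p = 0.0499) and Phb2 (1280.2 ± 95.4 in OSMI-1 and 1477 ± 87.4 in Vehicle libraries; -0.21 ± 0.07, adjusted p = 0.0315). The OSMI-1 falls were not stable: leaving out single libraries left between 0 and 3 (0 without OSMI-1 4 or Vehicle 4, and 1 without OSMI-1 5 or 6 or Vehicle 2 or 6), and the count was 1 without OSMI-1 5 and Vehicle 1 and without OSMI-1 4 and Vehicle 6.

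**Figure D5:**
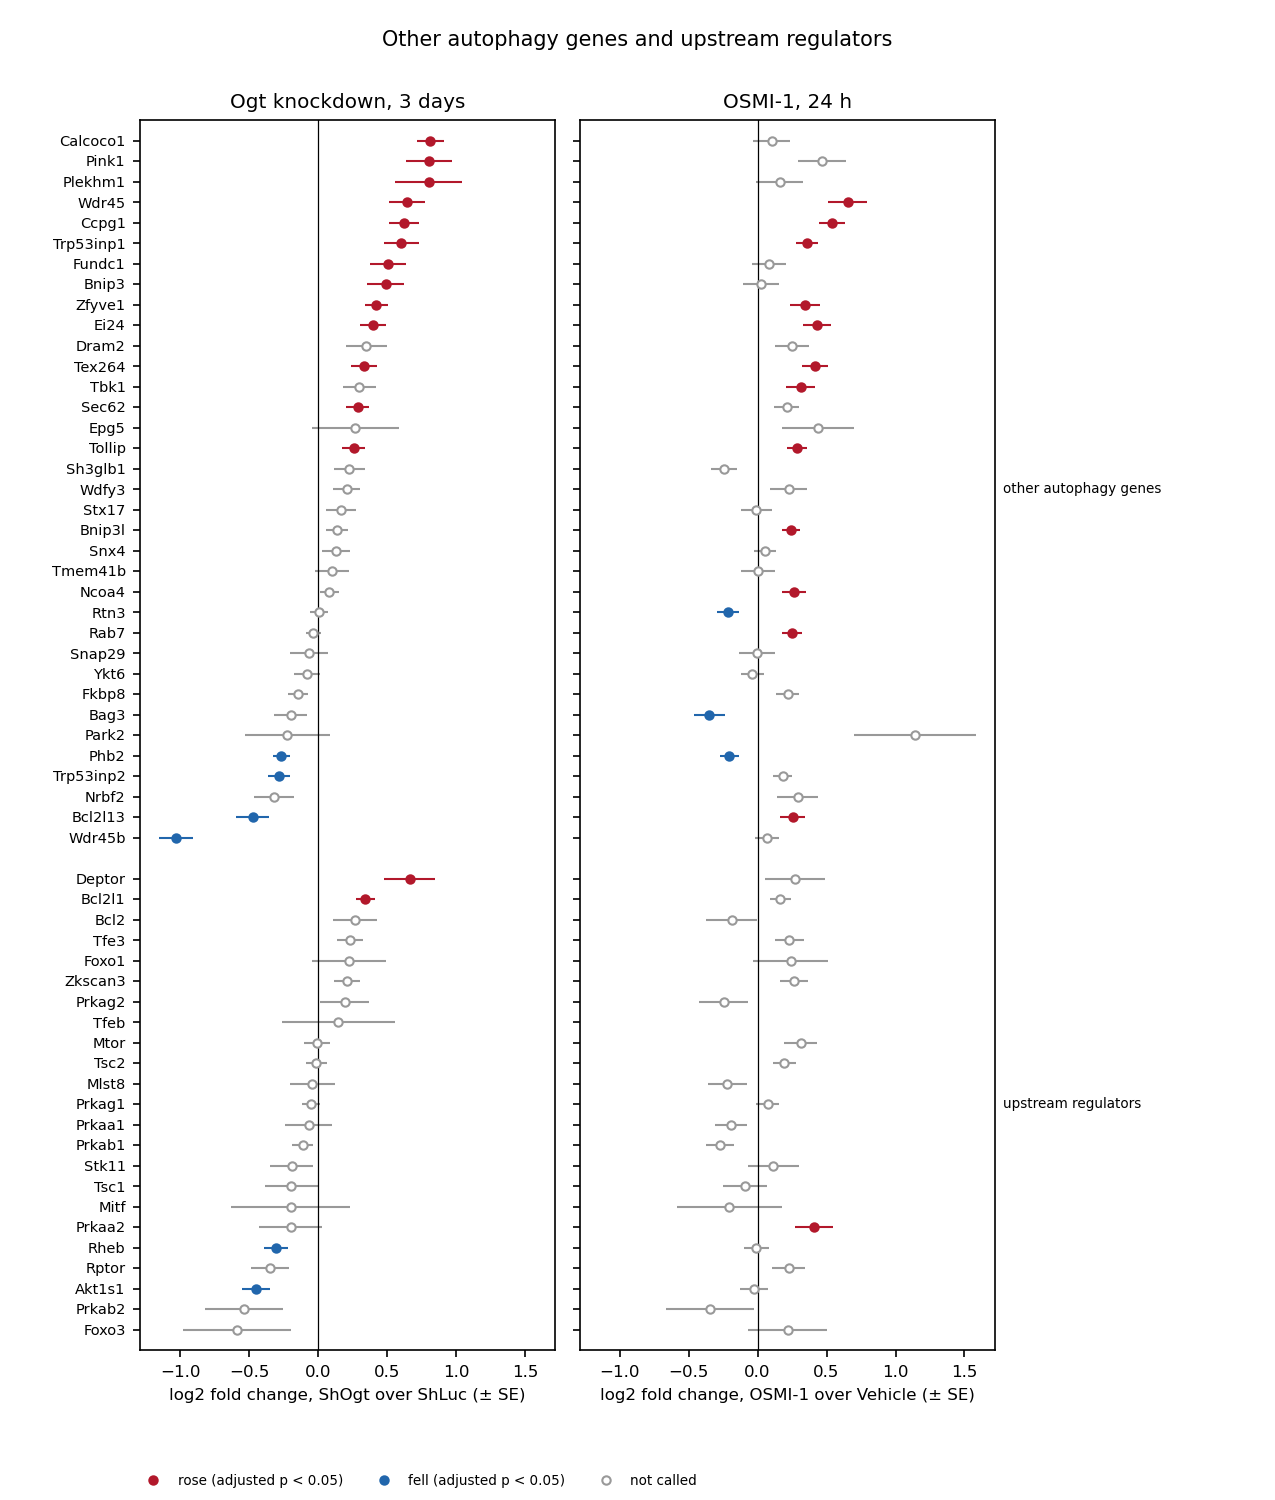
Log2 fold change (± SE, limma) of the tested genes of the further autophagy list and of the upstream regulators, for ShOgt (n = 5) over ShLuc (n = 6) on the left and OSMI-1 (n = 5) over Vehicle (n = 6) on the right. Filled red points rose and filled blue points fell at adjusted p under 0.05; in the autophagy list 13 rose and 4 fell after knockdown, led by Calcoco1 (0.82) and Wdr45b (-1.03), and among the regulators 2 rose and 2 fell after knockdown and 1 rose after OSMI-1.

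Upstream regulators (the mTORC1 and AMPK kinases, the TFEB and FOXO factors and BCL2 proteins, 23 genes) were examined beside them. After knockdown 2 of 23 rose (8.7%) and 2 fell (8.7%), with a median of -0.05, where 15.4% of all tested genes rose and 16.4% fell. Deptor, which binds and restrains mTOR, averaged 250.5 ± 40.6 in ShOgt and 161 ± 47.4 in ShLuc libraries (0.67 ± 0.19, adjusted p = 0.00965). Bcl2l1, which encodes BCL-XL, an apoptosis inhibitor that also binds Beclin 1, averaged 3588 ± 266 in ShOgt and 2826 ± 185 in ShLuc libraries (0.34 ± 0.07, adjusted p = 0.000633). Akt1s1, which encodes the mTORC1 inhibitor PRAS40, fell (455 ± 19.6 in ShOgt and 627 ± 94.8 in ShLuc libraries; -0.45 ± 0.10, adjusted p = 0.00246), as did Rheb, the GTPase that activates mTORC1 (678 ± 74.2 in ShOgt and 835 ± 37.8 in ShLuc libraries; -0.31 ± 0.09, adjusted p = 0.0107). After OSMI-1 1 of 22 tested rose (4.55%) and none fell, with a median of 0.09, where 11.6% of all tested genes rose and 13.2% fell. That gene was Prkaa2, a catalytic AMPK subunit (128 ± 12 in OSMI-1 and 96.4 ± 12.7 in Vehicle libraries; 0.41 ± 0.14, adjusted p = 0.0346), and single left-out libraries gave between 0 and 2 risers (0 without OSMI-1 1 or Vehicle 1, and 2 without OSMI-1 4 or Vehicle 4).

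After the knockdown, 28.4% of the 1141 tested genes whose 3′UTR holds the 7 bases AACATGC fell, against 15.6% of the 10194 that lack it, with median log2 fold changes of -0.17 and 0.02. A gene was counted as holding AACATGC if any of its annotated 3′UTRs did. The difference between these shares was not tested, and neither 3′UTR length nor other 7-base sequences were compared. After OSMI-1 the shares were 10.9% and 13.6%. That pattern was known from earlier work on these data, so the members were searched for it. It was found in 4 of 39 members (10.3%), against 8.51% of 20944 genes with an annotated 3′UTR. The sites are shown with AACATGC in capitals (GENCODE M21 transcripts, GRCm38, 5′ to 3′ on the transcript).
Atg2a: ccactgtcccAACATGCtcaccgtgtc
Atg3: tatgccaagaAACATGCtcagaaacat
Atg4d: tgcagacttgAACATGCctggcgttgt
Becn1: agaaaaaaatAACATGCctgaaactgg
They start at base 32 of a 498-base 3′UTR in Atg2a (chromosome 19), 412 of 797 in Atg3 (chromosome 16), 310 of 4336 in Atg4d (chromosome 9) and 1111 of 2861 in Becn1 (chromosome 11). The log2 fold changes of these 4 after knockdown were 0.09, -0.41, 0.10 and 0.11, and limma called none. The authors' DESeq2 test called Atg3 lower (-0.46, adjusted p = 0.0265). Neither Map1lc3b nor Vmp1, the members that fell, holds AACATGC, though Map1lc3b holds 3 copies of its 6-base core ACATGC, which is found in 28.2% of members and 27.5% of all genes. In the further list Bcl2l13 holds 1 copy and Wdr45b none.

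The authors' deposited table for the knockdown calls 14 members higher and 3 lower, and that for OSMI-1 calls 10 higher and none lower. All 16 knockdown calls and all 10 OSMI-1 calls made here are among them.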

How the data were processed

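RNA was sequenced in 22 libraries, grouped by the sample labels. The submitters' processing notes name STAR, RSEM and DESeq2 without versions, and a human build, although the symbols in the tables are of mouse genes. The labels' protocols describe strand-specific poly(A) libraries and the series design text Smart-Seq2, which was not settled here. The authors deposited 1 table per arm with, per the file headers, a normalized signal per library (counts scaled by DESeq2 size factors), a log2 fold change with standard error, the Wald score of the test, and the p-value with its adjusted form. The deposited inhibitor fold change has Vehicle on top; every fold change computed here is ShOgt over ShLuc or OSMI-1 over Vehicle. Positive values were whole multiples of the smallest one in each library (tolerance 0.001) in 100% of cases, which gave the reads back. On these reads edgeR's quasi-likelihood test called 3848 genes after knockdown and 2804 after OSMI-1, against 3855 and 2815 by limma.

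limma 3.58.1 (R 4.3.3) was fitted with an intensity trend to log2(normalized count + 1) within each arm without covariates, two-sided, with Benjamini-Hochberg adjustment over all tested genes and calls at 0.05. This scale understates changes of low genes. Genes were kept by filterByExpr of edgeR 4.0.16 run on these reads with a minimum count of 10 and a minimum total of 15. Differences between arms were an interaction contrast over the 4 groups. A run on simulated data used independent libraries and fewer changed genes than were called here. It is not used as support for these results. Alternatives were pseudocounts of 0.5 and 5, no filter, a mean of at least 50, TMM and upper-quartile scaling, edgeR's quasi-likelihood test, DESeq2 1.42.0, the replicate number as a block and each library left out. Leaving out the libraries that stood apart was added after the data were seen. So was leaving out the members with AACATGC, which could not change limma's knockdown counts since limma called none of them there. The members and lists were chosen with earlier results of these data known. Values are given in full for each member called in an arm and for Ulk1, Becn1, Atg5, Atg7, Map1lc3b and Sqstm1, and for the other lists the 4 largest called changes in each direction are named. Every pair of libraries differed by more than sampling noise. Depth limits precision most for genes of few reads, and no interval is given for single values. The result for 1 gene of the neural stem cell marker list is not reported here.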

Additional observations from a re-analysis of the deposited data

Results flagged for a closer look

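The log2 fold changes of 5 of 38 members differed between the arms by limma's interaction contrast, knockdown minus OSMI-1, where 22.9% of 11269 genes did. Atg10 and Map1lc3b kept the call in all 25 alternatives, and Atg12, Gabarap and Gabarapl2 lost it without some single libraries. The difference was 0.924 for Atg10, 0.396 for Atg12, -0.316 for Gabarap, 0.30 for Gabarapl2 and -0.781 for Map1lc3b, and for Map1lc3b alone of these the changes were called in opposite directions. Agent and duration cannot be told apart in this contrast.

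In 96 groups of 5 or 6 libraries examined for a single distant value, 2 had one, where chance gives about 1 in 20. Pik3r4 stood at 740 in ShLuc 5, with the other ShLuc libraries between 543 and 616. Ulk1 stood at 187 in ShLuc 3, with the others between 133 and 149.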

How the results depend on the processing

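The 14 rises after knockdown numbered 10 to 14 with single libraries left out and 12 to 14 under the other alternatives except without a filter on low values (10). The 2 falls numbered 1 to 3 with single libraries left out (1 without ShOgt 1 or ShOgt 3, 3 without ShLuc 1) and 3 with edgeR or DESeq2 on the recovered reads. The 10 rises after OSMI-1 numbered 8 to 11 with single libraries left out. Replicate numbers did not pair the libraries: correlations of deviations ran from -0.00857 to 0.161 in the knockdown arm and from -0.0992 to 0.0505 in the inhibitor arm, and of 10 pairs only ShOgt 3 correlated best with its own number. With the replicate block, 14 rose and 2 fell after knockdown, though not all the same genes. Atg4c (0.0755) and Optn (0.0755) missed the threshold there, and Tax1bp1 passed (0.0425). After OSMI-1 6 rose with the block, as Atg101 (0.0654), Atg14 (0.101), Becn1 (0.0638) and Tax1bp1 (0.0716) missed the threshold. The number of members that differed between arms ran from 3 to 6 with single libraries left out.

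In the further autophagy list, falls after OSMI-1 ran from 0 to 3 with single libraries left out, and were 1 without OSMI-1 5 and Vehicle 1 and 1 without OSMI-1 4 and Vehicle 6. Regulators that rose after OSMI-1 ran from 0 to 2, and were 3 with upper-quartile scaling and 0 without OSMI-1 5 and Vehicle 1. Regulators that fell ran from 0 to 1, and were 1 with a pseudocount of 5, 1 with a mean of at least 50 and 1 without OSMI-1 4 and Vehicle 6.

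Among the members whose values are given in full, the only ones for which this was examined, directions reversed in 7 values that were not called. After knockdown, Atg7 was 0.0132 with the replicate block and -0.117 to 0.0132 with single libraries left out, and Nbr1 was -0.0412 without the 3 libraries apart. After OSMI-1, Atg10 was 0.0145 with upper-quartile scaling, 0.104 and 0.0573 without each pair of libraries apart, and -0.0859 to 0.0695 with single libraries left out. Single left-out libraries gave -0.0632 to 0.0688 for Atg4b, -0.0202 to 0.087 for Gabarapl2, -0.0388 to 0.134 for Optn and -0.0967 to 0.112 for Wipi1. Gabarapl2 was also -0.0299 without OSMI-1 5 and Vehicle 1, Optn -0.0316 with the replicate block and Wipi1 -0.0242 without OSMI-1 4 and Vehicle 6. The 6-base core in place of AACATGC was found in 11 members instead of 4. No other scaling moved the median of all genes by more than 0.02. The cause of these changes was not tested.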
